A study of Homo sapiens with 4 samples.

Results

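From the 32285 mouse genes counted, 7 were followed across host cells that surrounded human breast lesions: Grem1, Crabp1, Crabp2, Hmga2, Cck, Tubb3 and Slc16a11. They were chosen from earlier results of these data as genes that accompany Grem1 in fibroblasts, so their high levels there are a description and carry no test. They were read in barcodes with at least 90% of gene UMIs (unique molecular identifiers, 1 per captured transcript) on mouse genes. A mouse cell was called a fibroblast when Col1a1, Col1a2 and Col3a1, the main fibrillar collagen genes, together held at least 0.2% of its mouse UMIs.

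The lesions came from MCF10DCIS.com, a human cell line that grows as ductal carcinoma in situ in mice. These cells were seeded on mammary extracellular matrix stripped of its cells and cultured on it for 12 days. The loaded matrix was placed in a pocket in the right or left fat pad of Rag1-/- mice, a strain without its own T or B lymphocytes. The tumour and the stroma beside it were taken 4 weeks later. The aged pool had matrix from mice of 18 months or more and the young pool had matrix from mice of 2 to 3 months, with 1 gene expression library each (10x Genomics 3' v3.1). Human cells, Rag1-/- hosts and procedure were the same in both pools, so the labels set apart only the age of the matrix. The age of the host mice and the number of mice in each pool are not given in the sources used here.

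Grem1 encodes gremlin 1, a secreted protein that binds bone morphogenetic proteins (BMPs) and keeps them from their receptors; it shapes limb buds and marks stromal cells in several organs and tumours. Crabp1 and Crabp2 encode cytosolic proteins that bind retinoic acid, and Crabp2 carries it to its nuclear receptor. Hmga2 encodes a chromatin protein of embryonic and transformed cells, Cck the gut and brain hormone cholecystokinin, Tubb3 the beta-tubulin typical of neurons, and Slc16a11 a transporter of the monocarboxylate family.

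After filters on depth and doublets, 12906 mouse cells remained in the aged pool and 11937 in the young pool, with medians of 2256 and 2285 UMIs. Fibroblasts numbered 1062 (8.23% of mouse cells) in the aged pool and 593 (4.97%) in the young pool. They were deep, with medians of 19696.5 UMIs in the aged pool and 20844 in the young pool, against 2141 and 2207 UMIs in the other mouse cells. All 14 fibroblast markers, among them Pdgfra, Dcn and Lum, were above 20 CPM (a gene's UMIs scaled to a common total of mouse UMIs, so that populations of any size compare) in the fibroblasts of both pools. Ptprc, the pan-leukocyte gene CD45, had a UMI in 22.9% of the aged and 23.9% of the young fibroblasts, so leukocyte RNA was present in some of them. The pools shared 190 barcodes, of which 143 were mouse cells and 0 fibroblasts. With 1 library a pool no difference has a replicate check. Intervals are exact 95% binomial or Poisson intervals and cover counting error only.

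All 7 genes were detected in the fibroblasts of both pools. The BMP antagonist gene Grem1 had 465 CPM in aged fibroblasts (11720 UMIs) and 715 CPM in young fibroblasts (11283 UMIs). Of the retinoic acid binding genes, Crabp1 had 701 CPM in aged and 967 CPM in young fibroblasts, and Crabp2 had 7.07 CPM in aged and 20.3 CPM in young fibroblasts. Hmga2, the embryonic chromatin gene, had 293 CPM in aged and 402 CPM in young fibroblasts. All of these were lower in the aged pool. The hormone gene Cck had 132 CPM in aged and 346 CPM in young fibroblasts. The neuronal tubulin gene Tubb3 had 17.5 CPM in aged and 33.7 CPM in young fibroblasts. The transporter gene Slc16a11 had 11.9 CPM in aged and 21.0 CPM in young fibroblasts. These 3 genes were also lower in the aged pool.

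A minority of fibroblasts carried these transcripts. With each cell thinned to 2000 UMIs, which left out 68 aged and 21 young fibroblasts, Grem1 was found in 19.9% of 994 aged fibroblasts (interval 17.5% to 22.5%) and in 28.7% of 572 young ones (24.996% to 32.6%). Without thinning the shares were 30.5% and 39.97%. Crabp1 was found in 19.2% of aged and 28.0% of young thinned fibroblasts, and Hmga2 in 14.2% and 19.4%. Cck was found in 4.93% and 6.64%, Tubb3 in 1.81% and 3.85%, Crabp2 in 0.704% and 1.92%, and Slc16a11 in 0.604% and 2.27% of aged and young fibroblasts. Neutrophils, which are not known to express these genes, were read as a background; they are shallower than fibroblasts, and the share of free RNA in either was not tested. In thinned neutrophil-like cells, of median depth 1960 UMIs in the aged and 2034 in the young pool before thinning, Grem1 was found in 0.988% and 0.753% and Crabp1 in 0.946% and 0.998%. Cck was found there in 0.273% of aged and 0.509% of young cells. Crabp2 was found in 0 of 4757 aged and 0 of 4911 young neutrophil-like cells, which, at 3 cells of the total, allows shares of cells with a UMI at this thinned depth of up to 0.0631% and 0.0611%. The fibroblast shares of all 7 genes were above these.

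The collagen threshold cut through the cells that carried the genes. Just below it, in cells with 0.1% to 0.2% collagen UMIs, Grem1 was found in 40.8% of thinned aged cells and 61.8% of thinned young cells; most cells of this range were too shallow to be thinned, with medians of 1614 and 1685.5 UMIs. Just above it, at 0.2% to 0.5%, it was found in 67.2% and 74.8%. At 2% collagen or more the shares were 5.95% in aged and 8.46% in young cells. Grem1 was thus most often found in collagen-poor cells near the threshold. Cck was found in 19.2% of aged and 30.4% of young cells just below the threshold and in 24.6% and 30.3% just above it. At 2% or more it was in 0 of 622 aged and 0 of 319 young cells.

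**Figure D1:**
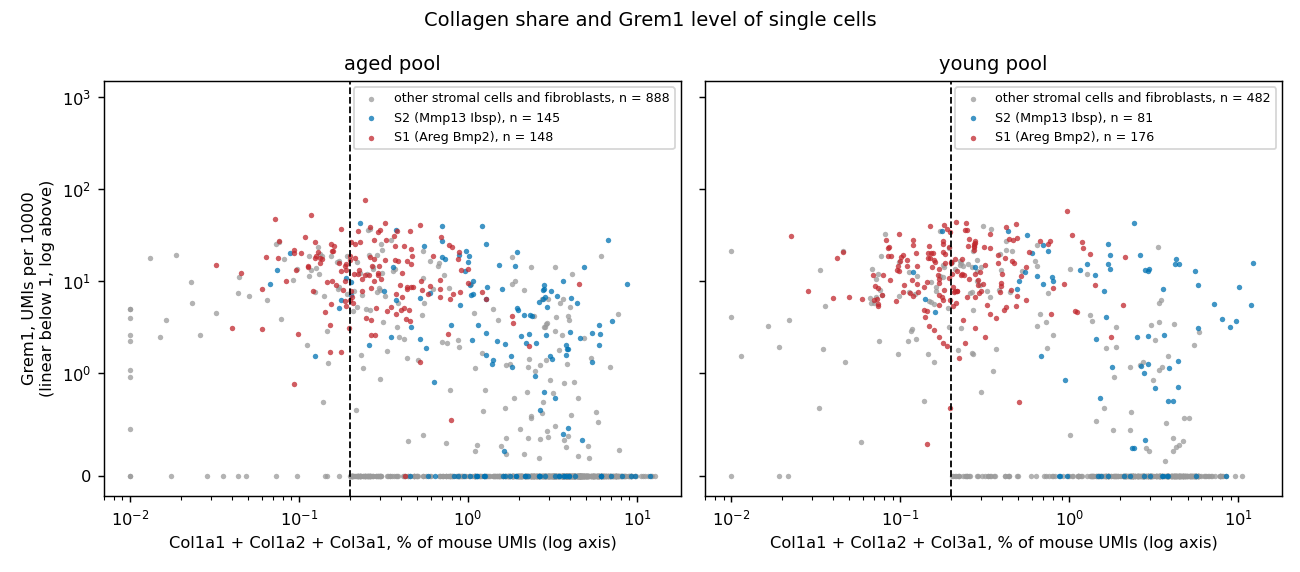
Grem1 UMIs per 10000 mouse UMIs (y axis, linear below 1 and log above) against the collagen share of mouse UMIs (log x axis, values under 0.01% drawn at 0.01%) for single stromal cells and fibroblasts of the aged (left) and young (right) pool. The dashed line is the 0.2% threshold; the cells of sub-cluster S1 lie on both sides of it, and those of S2 mostly to its right.

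The genes were therefore not confined to cells that passed the collagen threshold, but most of their UMIs lay in fibroblasts or stromal clusters. Of Crabp2, 10.8% of the aged and 11.03% of the young UMIs lay in cells that were neither of these nor in immune-named clusters. Clustering of the mouse cells without these 7 genes gave 23 clusters, of which 3 held mostly fibroblasts by the collagen rule and are called stromal here. Cells of these clusters below the threshold, 119 in the aged and 146 in the young pool, held 33.2% of all Grem1 UMIs of the aged pool and 46.1% of those of the young pool. Fibroblasts held 65.1% and 53.2%. For Slc16a11 the fibroblasts held 49.3% of the UMIs in the aged and 31.7% in the young pool, the lowest share of the 7 genes in each. Measured by the threshold alone, Grem1 was 3.35-fold higher in aged fibroblasts than in other aged mouse cells, and 3.54-fold higher in the young pool. None of the 7 genes (0 of 7) was 10-fold higher in both pools, a size that 4.07% of 6394 measured genes reached; the choice of the genes used this contrast. With the stromal clusters in place of the threshold, an alternative added after the data were seen, 6 of the 7 genes were, and 7.41% of 6451 measured genes. Crabp2, at 9.86-fold in the aged and 13.2-fold in the young pool, was the exception, and Crabp2 and Slc16a11 did not pass the minimum for measured genes.

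**Figure D2:**
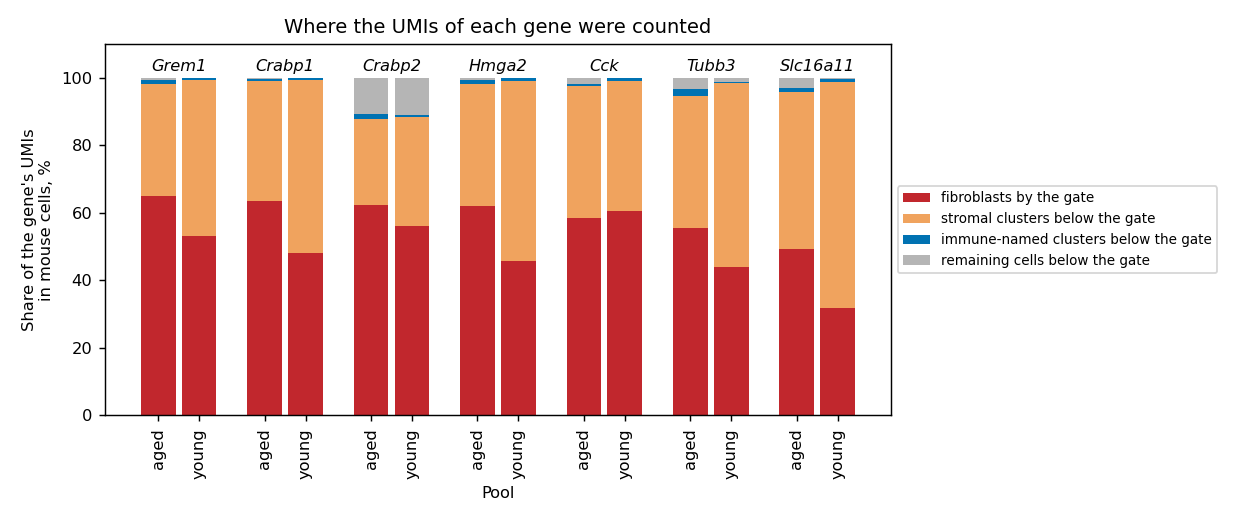
Share of each gene's UMIs in mouse cells (y axis, percent) by where they were counted, for the aged (left bar) and young (right bar) pool. Red and orange, the fibroblasts and the stromal cells below the collagen threshold, fill most of every bar, and Crabp2 has the largest remainder.

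Outside the stromal clusters the levels were near 0. Grem1 had 7.65 CPM there in the aged and 6.87 CPM in the young pool, and Cck had 3.43 and 2.35 CPM. Endothelial-like cells had 4.08 CPM of Grem1 in the aged and 3.14 CPM in the young pool, and neutrophil-like cells had 4.98 and 4.91 CPM. These values are low beside the fibroblasts. Luminal epithelium-like cells were higher, with 98.1 CPM of Grem1 in the aged and 51.1 CPM in the young pool, but 1 cell held 134 of the 135 UMIs in the aged pool and 86 of the 136 in the young pool. Crabp2 was spread over the luminal cells, with UMIs in 15 of 60 aged and 24 of 101 young cells. Its level there was 22.5 CPM in the aged pool, above the 7.07 CPM of aged fibroblasts. In the young pool it was 24.1 CPM (18.5 to 30.7), against 20.3 CPM (18.1 to 22.6) in fibroblasts, and these intervals overlap. Crabp2 was thus not particular to the stroma. As a gauge of free RNA, human cells held 63 Grem1 UMIs in the aged and 77 in the young pool, or 47.3 and 53.7 CPM of the mouse UMIs counted in human barcodes. The part of free RNA in the low levels outside the stroma was not tested.

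Among the stromal cells, 12 sub-clusters were drawn, again without the 7 genes; their leading genes were chosen after their values were seen. The sub-cluster with the highest Grem1 level, S1, was led by Areg, Bmp2, Ccnd1 and Odc1 and held 148 aged and 176 young cells. All 14 fibroblast markers counted for S1, yet its median collagen share was only 0.265% in the aged and 0.203% in the young pool. Its neutrophil markers summed to 349 CPM in aged and 334 CPM in young cells, against 2964 and 3508 CPM over all fibroblasts. In S1, Grem1 had 1452 CPM in aged and 1484 CPM in young cells, and Crabp1 had 2090 and 2094 CPM. Hmga2 had 1066 CPM in aged and 992 CPM in young S1 cells. These 3 genes marked nearly every S1 cell: without thinning, 0.676% of aged and 0 of the young S1 cells had no Grem1 UMI. The median S1 cell had 12.1 Grem1 UMIs per 10000 in the aged and 11.9 in the young pool, with upper values of 77.2 and 58.4. Cck was uneven, since 42.6% of aged and 38.1% of young S1 cells had none while the highest cells reached 38.5 and 196 UMIs per 10000. Tubb3 had 56.5 and 75.6 CPM, Slc16a11 51.1 and 82.2 CPM, and Crabp2 10.0 and 30.8 CPM in aged and young S1 cells.

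The 7 genes did not share 1 distribution over the other sub-clusters. S2, led by the collagenase gene Mmp13 and the bone matrix gene Ibsp, held 145 aged and 81 young cells. It had 582 CPM of Grem1 in aged and 837 CPM in young cells, and 635 and 532 CPM of Crabp1. Cck was nearly missing from S2, with 4.46 and 2.94 CPM, and so was Slc16a11, with 3.90 and 3.53 CPM. S10, led by the muscle actin gene Acta1 and by Eno3, showed another mixture in 27 aged and 23 young cells of very low collagen share (medians 0.0323% and 0.0963%). There Crabp1 had 1711 and 1751 CPM and Cck 850 and 496 CPM, with 381 and 310 CPM of Grem1 in aged and young cells. S8, led by Nos2 and Rasl11a, had 267 CPM of Cck and 14.4 CPM of Grem1 in its 50 aged cells; its 4 young cells had 0 UMIs of both genes. The cycling sub-cluster S7, led by Ube2c, had 432 CPM of Grem1 in aged and 726 CPM in young cells.

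Sub-clusters S6, led by the neutrophil genes Ngp and Retnlg, and S11, led by the antigen presentation gene Cd74 and by Lyz2, also held the genes. S6 had 1053 CPM of Grem1 in aged and 1005 CPM in young cells, and S11 had 654 and 557 CPM. Both carry leukocyte RNA beside stromal RNA, and how much of that is free RNA or 2 cells in a droplet was not tested. The collagen-rich sub-clusters S0 and S4 had little Grem1. In S0, led by Dmkn, Sbsn and Dpp4, Grem1 had 3.53 CPM in aged and 0.423 CPM in young cells, and Cck and Slc16a11 had 0 UMIs in both pools. In S4, led by Scg3 and the lipoprotein lipase gene Lpl, Grem1 had 2.80 CPM in aged cells and 0 UMIs in young cells. S3, led by Reg1 and C1qtnf3, was between these, with 85.4 CPM of Grem1 in aged and 119 CPM in young cells.

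**Figure D3:**
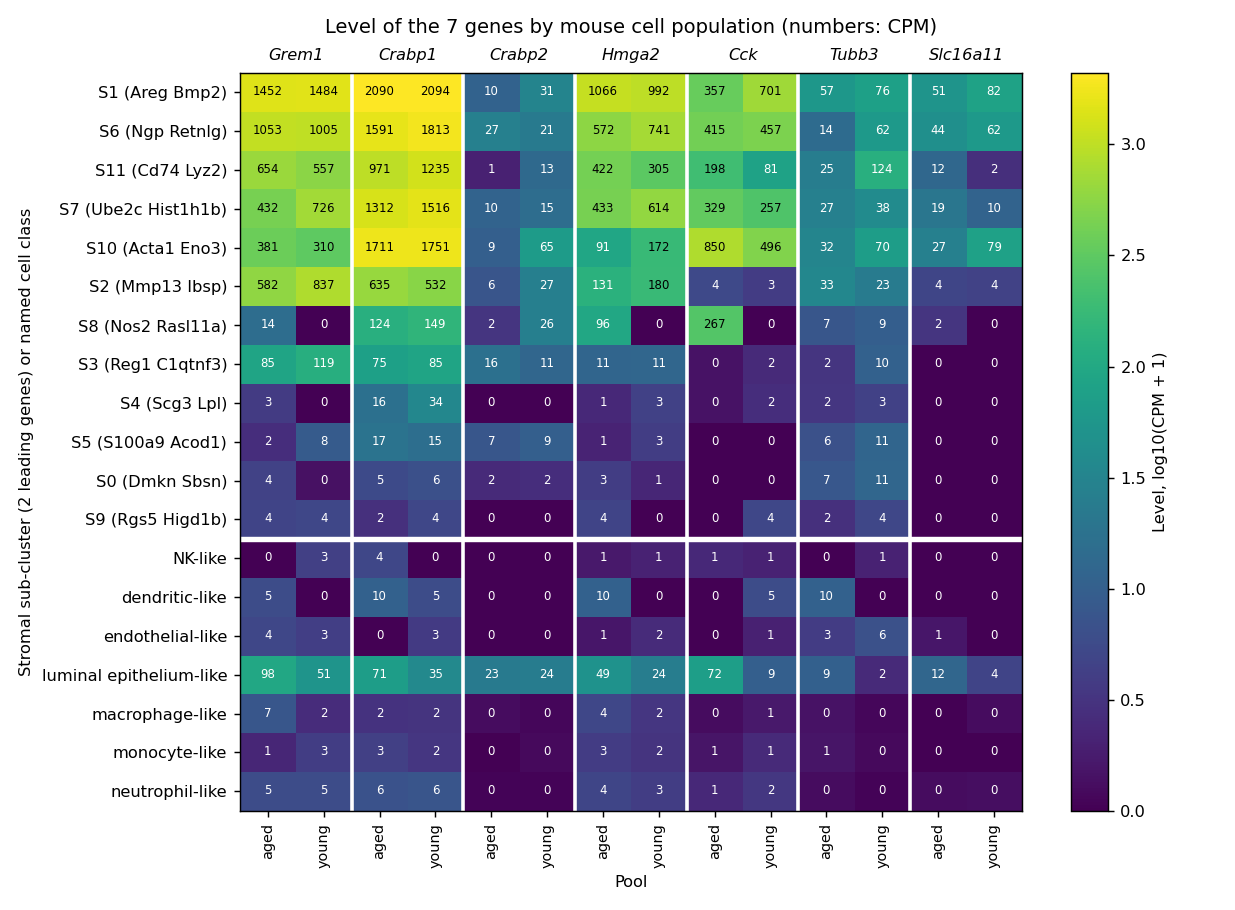
Level of the 7 genes in the 12 stromal sub-clusters (named with their 2 leading genes) and in named cell classes, aged left of young in each pair. Colour is log10(CPM + 1) and the printed numbers are CPM; Grem1, Crabp1 and Hmga2 are high in S1, S6, S11 and S7, Cck is high in S10 but near 0 in S2, and S0, S4, S5, S9 and the immune classes are near 0.

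Within fibroblasts, Crabp1, Hmga2 and Cck were found more often in cells with a Grem1 UMI than in cells without. The intervals of both kinds of cell overlapped for Crabp2 in both pools and for Tubb3 in the aged pool. Of the aged fibroblasts with a Grem1 UMI at 2000 UMIs, 58.6% of 198 also had Crabp1, against 9.42% of the 796 without. Of the young ones, 72.6% of 164 had Crabp1, against 10.0% of the 408 without Grem1. Crabp1 was 11.4-fold higher in aged cells with Grem1 than in those without (9.62 to 13.5), and 10.1-fold higher in the young pool (8.35 to 12.2). Hmga2 followed Grem1 more steeply, being 17.5-fold higher with Grem1 in aged (13.2 to 23.5) and 23.3-fold higher in young fibroblasts (15.6 to 36.1). Cck was 8.89-fold higher with Grem1 in aged fibroblasts (5.82 to 13.9) and 36.6-fold higher in young fibroblasts (20.9 to 69.9). The Cck folds rest on few cells: without Grem1, Cck was found in 15 of 796 aged and 3 of 408 young fibroblasts. With Grem1 it was found in 34 of 198 aged and 35 of 164 young ones. The difference between these Cck folds has no replicate check.

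The rarer genes gave wider ratios. Tubb3 was 5.81-fold higher in aged fibroblasts with Grem1 than in those without (2.30 to 15.4) and 3.39-fold higher in young ones (1.46 to 8.17). Slc16a11 had 5 UMIs in aged cells with Grem1 and 1 in those without, a ratio of 20.1 with a counting interval of 2.25 to 951. In the young pool it had 12 and 2 UMIs, a ratio of 14.9 (3.32 to 137). Crabp2 did not follow Grem1: it had 1 UMI in aged cells with Grem1 and 8 in those without, a ratio of 0.503 (0.0113 to 3.75), and 9 and 11 in the young pool, a ratio of 2.04 (0.746 to 5.40). So 5 of the 6 genes other than Grem1 were at least 2-fold higher with Grem1 in both pools. Of these, Slc16a11 rests on 1 and 2 UMIs in the aged and young cells without Grem1, and the young log2 ratio of Tubb3 was -0.046 when thinned to 1000 UMIs and 0.00 at 1% collagen. Over all 6121 genes measured in this comparison 5.44% were that much higher and 8.05% that much lower. Of the 6 genes other than Grem1, 4 met its minimum for measured genes. Crabp2 and Slc16a11 did not, being below 20 CPM in the aged pool. The choice of the genes used this contrast, so nothing is read from the count.

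**Figure D4:**
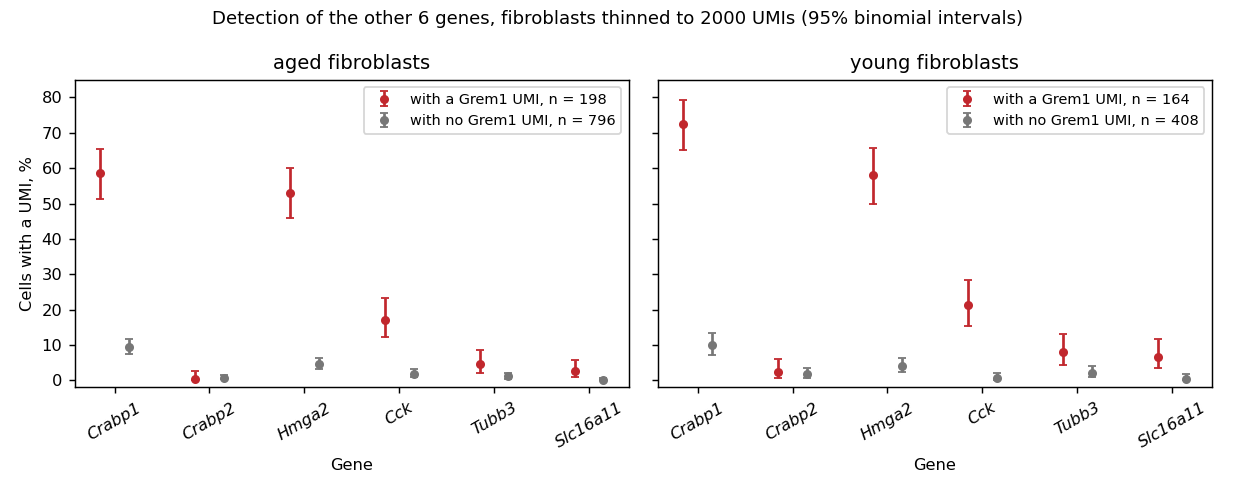
Share of thinned fibroblasts with a UMI of each gene (y axis, percent, with 95% binomial intervals), split by whether the cell had a Grem1 UMI (red) or none (grey), aged pool left and young pool right. Crabp1 and Hmga2 lie between 53.0% and 72.6% in the cells with Grem1. The intervals of both kinds of cell overlap for Crabp2 in both pools and for Tubb3 in the aged pool.

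Few cells showed many of the genes at this depth. Of the thinned fibroblasts, 69.0% in the aged and 61.2% in the young pool had none of the 7 genes, and 2.82% and 5.94% had 4 of them. Across cells, Grem1 had a Pearson correlation of 0.55 with Crabp1 in aged and 0.61 in young fibroblasts, and of 0.58 and 0.62 with Hmga2. Its correlation with Crabp2 was -0.02 in the aged and 0.03 in the young pool. These are descriptions over 994 aged and 572 young cells that share 1 library a pool and a fixed depth.

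Of 4562 genes found in at least 5% of the thinned fibroblasts of each pool, those whose pattern over cells was most like Grem1 were Spp1 (0.61 in aged and 0.64 in young fibroblasts), Ass1 (0.60 and 0.61) and Hmga2. Spp1 encodes the secreted phosphoprotein osteopontin, and Ass1 the arginine-making enzyme argininosuccinate synthase. Ass1 (0.62 and 0.67), Spp1 and Hmga2 were also the nearest to Crabp1. For Hmga2 they were Grem1, Ass1 and Crabp1. Cck was nearest to Spp1 (0.36 in aged and 0.40 in young fibroblasts), Crabp1 and Hmga2. Slc16a11 was nearest to Areg, an EGF receptor ligand gene (0.23 and 0.30), then to Hmga2 and Grem1. The highest values for Tubb3 (Il11, Nans and Nme1, 0.13 to 0.20) and for Crabp2 (Tmem127, Npepl1 and Snrnp48, 0.09 to 0.11) were too weak in these sparse counts to be read.

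The pathway partners of the 7 genes were read in the same split of thinned fibroblasts, in lists chosen with earlier results known. A partner is called higher or lower where it differed by at least 2-fold in both pools, and over all measured genes the median log2 ratio of cells with to cells without Grem1 was 0.11 in aged and 0.07 in young fibroblasts. Of 13 measured BMP signalling genes 2 were higher and 0 lower, with medians of -0.05 and 0.31. The higher ones were Id1, a BMP target that blocks differentiation factors, with 139 against 33.3 CPM in aged and 311 against 25.7 CPM in young fibroblasts, and its relative Id2. Bmp2, a ligand that gremlin 1 binds, was 3.42-fold higher with Grem1 in aged and 1.95-fold higher in young fibroblasts. The receptor gene Bmpr2 differed little, with 136 against 141 CPM in aged and 131 against 107 CPM in young fibroblasts. At the low end were Smad5, which encodes a signal transducer of these receptors (0.512 and 0.393 of the level without Grem1 in aged and young fibroblasts), and the receptor gene Acvrl1.

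Of 9 measured secreted BMP and activin antagonist genes other than Grem1, 2 were higher in cells with Grem1 and 3 lower. The follistatin relative Fstl3 was 3.50-fold higher in aged and 2.94-fold higher in young fibroblasts. The BMP-binding genes Twsg1 and Bmper and the abundant Fstl1 were lower. Fstl1 had 1033 against 2696 CPM in aged and 994 against 2841 CPM in young fibroblasts.

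Of 11 measured retinoid genes 1 was higher and 2 lower, with medians of 0.16 and 0.25. Cyp26b1, which encodes an enzyme that breaks down retinoic acid, was 8.34-fold higher with Grem1 in aged and 9.60-fold higher in young fibroblasts. Aldh1a3, which encodes an enzyme that makes retinoic acid, had 7.58 against 48.4 CPM in aged and 9.15 against 74.8 CPM in young fibroblasts. Dhrs3, which turns retinal back to retinol, was also lower, with 25.3 against 51.5 CPM and 12.2 against 42.9 CPM. Of the nuclear receptor genes, Rarg had 30.3 against 27.0 CPM in aged and 39.6 against 19.6 CPM in young fibroblasts.

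Of 13 measured oncofetal and imprinted growth genes 2 were higher and 5 lower. Hmga1, the relative of Hmga2, was 5.17-fold and 7.46-fold higher with Grem1 in aged and young fibroblasts, and the RNA-binding protein gene Igf2bp2 was 3.16-fold and 2.05-fold higher. Lower were the imprinted genes H19, Cdkn1c, Plagl1 and Ndn and the growth regulator Myc. Cdkn1c, a cell cycle inhibitor, had 12.6 against 173 CPM in aged and 21.3 against 174 CPM in young fibroblasts.

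Of 8 measured genes of peptide hormones and their secretory granules 1 was higher and 4 lower. Cpe, the carboxypeptidase that trims prohormones, was 3.22-fold higher with Grem1 in aged and 5.33-fold higher in young fibroblasts. The amidating enzyme gene Pam, the hormone genes Adm and Penk and the granule gene Scg3 were lower. The cholecystokinin receptor gene Cckbr had 0 UMIs in all mouse cells of both pools, and Cckar had 3 UMIs in aged and 1 in young fibroblasts.

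Of 13 measured tubulin and neuronal cytoskeleton genes 3 were higher and 0 lower: Tuba4a (5.12-fold in aged and 4.48-fold in young fibroblasts), the intermediate filament gene Nes (4.02-fold and 3.65-fold) and Tuba1c. Of 8 monocarboxylate and lactate genes, the lactate exporter gene Slc16a3 (3.19-fold and 2.67-fold) and the lactate dehydrogenase gene Ldha (2.41-fold and 2.16-fold) were higher, and 1 gene was lower.

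Of 30 measured activated and myofibroblast genes 9 were higher and 3 lower, with medians of 0.68 in aged and 0.57 in young fibroblasts. Higher were the protease genes Mmp10 (22.2-fold and 9.23-fold), Mmp13, Mmp9 and Mmp3, the cytokine gene Il11 (5.68-fold and 16.9-fold), Spp1, the activin gene Inhba, the matrix gene Tnc and the tropomyosin gene Tpm2. The contractile gene Acta2 differed little, with 1172 against 911 CPM in aged and 1037 against 908 CPM in young fibroblasts. Fap, the fibroblast activation protease gene, had 7.58 against 93.6 CPM in aged and 6.10 against 100.5 CPM in young fibroblasts. Of 22 progenitor-like fibroblast genes 0 were higher and 19 lower, with medians of -2.93 and -3.05. Dpt had 48.0 against 1327 CPM in aged and 24.4 against 1315 CPM in young fibroblasts, Pi16 had 96.0 against 1345 CPM and 82.3 against 1625 CPM, and Dpp4 had 0 UMIs in cells with Grem1. Of 20 mesenchyme transcription factor genes Tbx3, Twist2 and Sox9 were higher and Osr1 lower, and of 9 proliferation genes Mki67 was lower and 0 were higher. Over the thinned cells, neutrophil markers summed to 2470 CPM with Grem1 and 3259 CPM without in the aged pool and to 3088 and 5452 CPM in the young pool; their part in these ratios was not tested.

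Between the pools, the levels of all 7 genes in fibroblasts were lower with aged matrix, 5 of them by at least 1.5-fold, and 0 were higher by that much. Of 5961 measured genes 0.671% were that much lower and 0.688% that much higher. The median log2 ratio of aged over young was -0.82 over the 7 genes and -0.04 over all measured genes. Grem1 was 1.54-fold lower in aged fibroblasts (1.497 to 1.58), Crabp1 1.38-fold lower (1.35 to 1.41) and Hmga2 1.37-fold lower (1.33 to 1.42). The 3 genes that mark S1 cells thus differed by similar folds. Cck was 2.62-fold lower (2.51 to 2.74) and Crabp2 2.87-fold lower (2.38 to 3.47). Tubb3 was 1.93-fold lower (1.69 to 2.19) and Slc16a11 1.76-fold lower (1.502 to 2.07). These hormone, retinoid, tubulin and transporter genes showed larger folds than Grem1, though the interval of Slc16a11 overlapped that of Grem1. One young cell held 1213 Cck UMIs, 22.2% of those in young fibroblasts, and another held 80 of their 320 Crabp2 UMIs; without the top cell of each pool, Cck had a log2 ratio of -1.19 and Crabp2 of -1.28.

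The make-up of the fibroblasts differed alongside. S1 cells made up 8.95% of the aged and 15.2% of the young fibroblasts, and 13.3% and 24.5% of all stromal cells. The result also changed with the collagen threshold: at 0.5% collagen the log2 ratio of aged over young was 1.04 for Cck and 0.12 for Crabp1, and at 1% it was 2.63 for Cck and -0.01 for Crabp1. The 50 aged S8 cells, all above 0.2% collagen, against 4 young ones, held 352 Cck UMIs in the aged pool and 0 in the young pool. Fewer cells of a kind and less RNA per cell cannot be told apart in the summed fibroblast values, and with 1 library a pool neither can matrix age and library.

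Within S1 the picture differed between the genes. The aged over young fold was 0.979 for Grem1 (0.955 to 1.004), 0.998 for Crabp1 (0.977 to 1.02) and 1.07 for Hmga2 (1.04 to 1.11). For the other 4 genes the summed S1 level was lower in the aged pool: Crabp2 by 3.06-fold (2.37 to 4.00), Cck by 1.97-fold (1.88 to 2.06), Slc16a11 by 1.61-fold (1.42 to 1.82) and Tubb3 by 1.34-fold (1.18 to 1.51). So 3 of the 7 genes were at least 1.5-fold lower and 0 higher, where 0.394% of 5587 measured genes were that much lower and 0.662% higher. Without the top cell of each pool the folds were 2.99 for Crabp2, 1.76 for Cck and 1.59 for Slc16a11, an alternative added after the data were seen. In thinned S1 cells Grem1 was found in 83.8% of aged and 83.5% of young cells, Cck in 28.4% and 32.4%, and Slc16a11 in 6.08% and 13.6%.

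**Figure D5:**
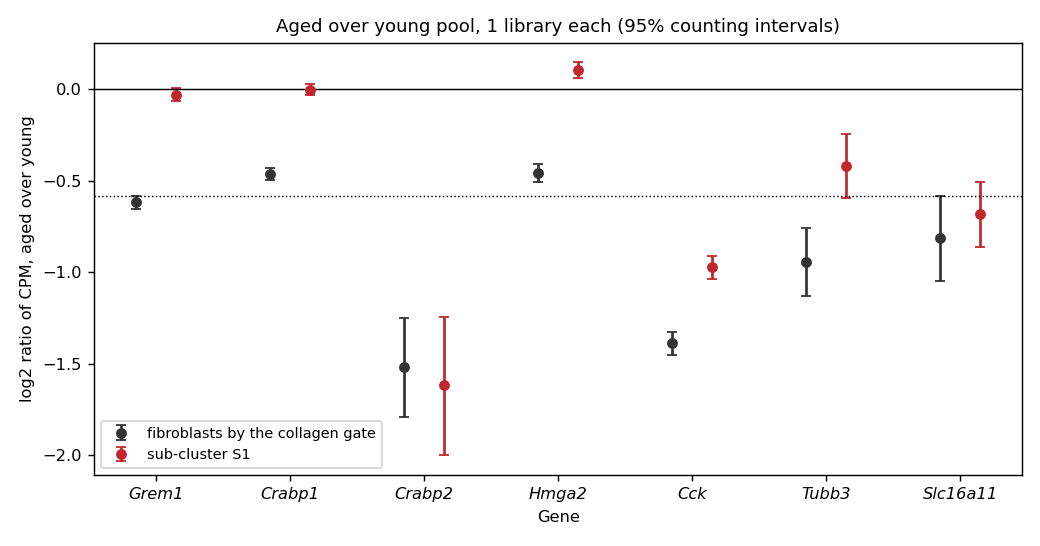
Log2 ratio of CPM, aged over young, for the 7 genes in fibroblasts by the collagen rule (black) and in sub-cluster S1 (red), with 95% counting intervals; the dotted line is a 1.5-fold lower level. All 7 black points lie below 0, while the red points of Grem1 and Crabp1 lie at 0 and that of Hmga2 just above it.

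Other sub-clusters did not all follow S1. In S2, Grem1 was 1.44-fold lower in aged cells (1.34 to 1.54), while Crabp1 had an aged over young fold of 1.19 (1.10 to 1.29). A single aged S2 cell held 473 of the 2279 Crabp1 UMIs, so this Crabp1 fold rests in part on that cell. Hmga2 was 1.37-fold lower in aged S2 cells (1.18 to 1.58). Cck was higher in the aged cells of S7, S10 and S11, with aged over young folds of 1.28, 1.71 and 2.44, and Slc16a11 was 1.83-fold higher in those of S7. Single aged cells held 342 of 978 Cck UMIs in S7, 155 of 375 in S10 and 136 of 199 in S11. For Slc16a11, 1 aged S7 cell held 22 of 57 UMIs. The share of S7 cells with an Slc16a11 UMI was 15.7% in the aged and 21.6% in the young pool, the other direction. In the stromal cells below the collagen threshold Grem1 had 1279.1 CPM in the aged and 1272.3 CPM in the young pool, Cck had 474 and 451 CPM, and Slc16a11 had 60.4 and 91.0 CPM. Crabp2, Tubb3 and Slc16a11 were thus lower in the aged pool on both sides of the threshold. For Cck the aged over young fold below it was 1.05 (0.996 to 1.11).

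The same lists of partners were read for a 1.5-fold difference between the pools in fibroblasts. Of all 5961 measured genes, 0.671% were that much lower and 0.688% that much higher in aged fibroblasts. The lists were chosen with earlier results known, so their counts are descriptions. Of 12 measured BMP signalling genes, Bmp2 (14.9 CPM in aged and 25.8 CPM in young fibroblasts) and Id1 (96.0 and 161 CPM) were at least 1.5-fold lower and 0 were higher. Of 9 antagonist genes and of 10 retinoid genes 0 passed that fold; Bmper had the highest antagonist ratio (26.5 and 20.7 CPM) and Cyp26b1 had 42.7 and 50.5 CPM. Cpe, of 7 hormone and granule genes, was lower, with 13.7 CPM in aged and 21.7 CPM in young fibroblasts. Gap43, of 15 tubulin and neuronal genes, was lower, and the tubulin list had a median log2 ratio of -0.34 against -0.04 over all genes. H19 was the 1 oncofetal gene of 11 past the fold, with 26.8 CPM in aged and 12.3 CPM in young fibroblasts. Il11 and Tnc, of 30 activated fibroblast genes, were lower, and Lpl, Cpxm1 and C3, of 22 progenitor-like genes, were higher in aged fibroblasts. Rrm2 and Tk1 of 15 proliferation genes were lower, and 0 of 8 lactate genes and 0 of 19 transcription factor genes passed the fold.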

How the data were processed

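Mouse and human genes were counted in 1 gene expression library per pool. The deposited matrices hold UMI counts per feature and barcode; the authors made them with Cell Ranger 6.0.0 on GRCh38 and mm10, per the submitters' processing notes. Barcodes with at least 90% mouse UMIs were kept at 500 UMIs, 300 genes and at most 20% mitochondrial UMIs. Scrublet scores above 0.25 were removed (1184 aged and 1054 young cells). Without these filters, 1143 aged and 628 young barcodes met the fibroblast rule. Clustering took both pools at once, without the 7 genes and without batch correction (scanpy 1.11.5, leidenalg 0.10.2, 2000 variable genes, 30 components, Leiden resolution 1), and the stromal clusters again at resolution 0.5. Cluster names rest on marker lists.

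UMIs were summed per population and pool as CPM of mouse UMIs. Measured genes had 20 CPM in the higher group and 100 UMIs over both (for the Grem1 split, 20 CPM in the higher group of each pool and 20 UMIs over both pools). Thinning drew 2000 UMIs a cell. There was no test and no p-value. The fold calls were checked on simulated counts; edgeR 4.0.16 gave TMM scaling for an alternative. Other alternatives changed thresholds, weights and filters. The genes and lists were chosen with earlier results of these data known. Genes named are the 7, the 3 most similar to each, and in each list up to 2 at each end plus those past the fold; others, such as leading genes, were chosen after their values were seen. Antibody tag counts were not used in the comparisons. No sample column was left unmapped. Some genes of the lists are counted but not reported here by name.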

Additional observations from a re-analysis of the deposited data

How the results depend on the processing

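The number of the 7 genes at least 1.5-fold apart between pools in fibroblasts, counted where measured, was 5, all lower in the aged pool. At a collagen threshold of 0.5% it was 1, and that gene was Cck, which was higher in the aged pool. It was 2 at 1%, and 3 without fibroblasts that had a Ptprc UMI or 1% S100a8 and S100a9 UMIs. With a minimum of 100 CPM it was 2, and without each gene's top cell 3. Over all genes it was 81, and 135 with equal weight for each cell, 21 with a minimum of 100 CPM, 229 with a minimum of 5 CPM and 219 with stromal clusters in place of the threshold, which was chosen after seeing the data. The number of the 7 genes at least 10-fold above other mouse cells, 0, was 4 with equal weights and 6 with stromal clusters. Of 84 alternative log2 ratios of aged over young, 81 were negative. All of them came from the same library of each pool and are not independent readings. Cck turned round to 1.04 at 0.5% collagen and 2.63 at 1%, and the Tubb3 log2 ratio of young cells with over without Grem1 came to 0.00 at 1% collagen and -0.046 when thinned to 1000 UMIs; the cause was not tested. No paired analysis was possible because each pool had 1 library. Depth limits Crabp2, Tubb3 and Slc16a11, which had few UMIs after thinning.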

Other observations

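The human tumour cells next to these fibroblasts used the same gene set differently. Over 2015 human cells in the aged and 2108 in the young pool, GREM1 had 3 and 7 UMIs, CRABP1 and CCK had 0 in both pools, and SLC16A11 had 0 and 1. CRABP2 had 621 CPM of human UMIs in the aged and 645 CPM in the young pool, TUBB3 had 124 and 148 CPM, and HMGA2 had 22.3 and 26.1 CPM. CRABP2, the gene least tied to Grem1 in mouse fibroblasts, was the human member found in the largest share of tumour cells. It had a UMI in 82.4% of aged and 82.7% of young pool cells, and TUBB3 in 71.0% and 73.0%. These shares are without thinning, so they do not compare with those of thinned fibroblasts.

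Genes of BMP signalling were present in the tumour cells. BMP2 had 40.9 CPM in the aged and 42.7 CPM in the young pool, the receptor gene BMPR2 had 53.0 and 52.1 CPM, and the target gene ID1 had 249 and 248 CPM. The cholecystokinin receptor genes CCKAR and CCKBR had 0 UMIs in tumour cells of both pools.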
